A study of Mus musculus with 6 samples.

Results

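Interferon-stimulated genes were followed in RNA from cultured aortic smooth muscle cells, as a list of 35 genes named by symbol, of which 33 were listed among the 18112 genes of the expression table. Mx1 and Mx2 were not analysed here. The study compared vascular smooth muscle cells (VSMCs) with and without Smyd2, a lysine methyltransferase, and 3 libraries were made from Smyd2 fl/fl cells and 3 from Smyd2 SMC-/- cells. Both groups came from adult mice of the C57BL/6 strain and carried Smyd2 alleles flanked by loxP sites, and the Smyd2 SMC-/- mice also carried a Cre recombinase driven by the Tagln (SM22α) promoter, with floxed littermates as controls. Because Cre acts only where Tagln has been active, cells of the culture that never expressed it would keep Smyd2. The labels give medium with 10% FBS and passage 6, whereas the study's methods describe an earlier passage with overnight starvation and another RNA extraction. The labels do not say whether the replicates of a group came from separate animals, so p-values measure the spread between these libraries.

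Type I interferons bind the receptor IFNAR1/IFNAR2, which activates the kinases JAK1 and TYK2. These phosphorylate transcription factors, among them STAT2, which acts with IRF9 at the interferon-stimulated response element (ISRE) in the promoters of target genes. The products sense viral RNA, block its translation or degrade it, and several of them, including STAT2, IRF7 and IRF9, feed back on the same pathway; vascular smooth muscle cells carry the receptor and respond to interferon.

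Levels are given as FPKM, which corrects fragment numbers for transcript length and library size and so can be set side by side between genes. The spacing of low values put the depth (in units of 1e6 fragments) near 18.4, 19.9 and 19.7 in Smyd2 fl/fl and near 17.2, 19.4 and 19.1 in Smyd2 SMC-/-, for replicates 1 to 3. Per library, 67.6% to 72.1% of low values fell no further than 0.15 from a whole number of fragments. At a depth fixed beforehand, chance would put 30% there. The depth was picked to make this share largest, so the 30% is not a like comparison and the depths are approximate.

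Smyd2 itself (NCBI Gene 226830, chr1:189880492-189922495 on GRCm38) was at 7.87, 3.10 and 3.0 FPKM (Smyd2 fl/fl, replicates 1 to 3) against 1.67, 0.40 and 0.80 FPKM (Smyd2 SMC-/-). The genotypes did not overlap, as the labels have it, and a two-sided exact permutation test gave p = 0.1, which is the lowest value possible for 3 against 3. In limma the log2 fold change was -1.48 (SE 0.389) with an adjusted p of 0.105, which became 0.0189 when replicate numbers were blocked.

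Of 10 smooth muscle markers, 8 had a mean of at least 0.5 FPKM, and Acta2 was the most abundant. Their levels summed to 1615.17, 1354.04 and 1367.19 FPKM (Smyd2 fl/fl, replicates 1 to 3) against 585.41, 843.21 and 817.53 FPKM (Smyd2 SMC-/-). Myh11 and Des, which mark contractile smooth muscle, had means below 0.5 FPKM. Of the 8 tested in limma without a block, only Acta2 was called by genotype. It was lower in the knockout at a log2 fold change of -1.55 (adjusted p = 0.00803), and Lmod1 was the exception to negative values, at 0.24. With replicate numbers blocked, Cald1 was also called lower, at -0.58 (adjusted p = 0.0488). Taken singly, 1 of the 10 was lowest in replicate 1 of Smyd2 fl/fl and 9 in that of the knockout. Of 12 leukocyte and macrophage markers, 7 had means below 0.5 FPKM, among them the defining genes Ptprc, Adgre1, Itgam and Tyrobp, and Cd14 was the most abundant. The leukocyte markers summed to 43.95, 30.26 and 26.95 FPKM (Smyd2 fl/fl) against 41.65, 18.51 and 23.68 FPKM (Smyd2 SMC-/-). Replicate 1 was the highest of each genotype in this sum, and without Cd14, left out after its values were seen, it was the lowest, at 6.27, 8.37 and 9.21 FPKM (Smyd2 fl/fl) against 6.38, 7.87 and 7.61 FPKM (Smyd2 SMC-/-). Taken singly, 2 of the 12 were lowest in replicate 1 of Smyd2 fl/fl and 2 in that of the knockout. Of 10 endothelial markers, 9 were below that mean, including Cdh5 and Tie1, with Kdr the most abundant and sums between 2.15 and 5.84 FPKM. The 8 adventitial fibroblast markers, with Ly6a the most abundant and only Dpep1 below a mean of 0.5 FPKM, summed to 287.33, 608.74 and 528.6 FPKM (Smyd2 fl/fl) against 56.01, 189.65 and 168.08 FPKM (Smyd2 SMC-/-). This sum was lowest in replicate 1 of each genotype, as were most of the interferon-stimulated genes described next. Taken singly, 7 of the 8 were lowest in replicate 1 of Smyd2 fl/fl and 6 in that of the knockout, and in 4 both replicate 1 libraries lay below the other 4 libraries. The exceptions were Dpt, highest in replicate 1 of both genotypes, and Pdgfra, highest in replicate 1 of the knockout. Without Ly6a, also left out after its values were seen, the sums were 234.76, 231.08 and 201.26 FPKM (Smyd2 fl/fl) against 19.66, 48.35 and 37.98 FPKM (Smyd2 SMC-/-), with Dpt at 143.88, 90.32 and 65.50 FPKM of the former. Without Ly6a, replicate 1 was thus the highest of Smyd2 fl/fl and still the lowest of the knockout. Of the 7 adventitial markers tested in limma without a block, only Dpt was called by genotype. It was lower in the knockout at a log2 fold change of -5.28 (adjusted p = 0.00417), and Lum and Clec3b had positive values, at 1.82 and 0.05. With replicate numbers blocked, Cd34 (-2.85, adjusted p = 0.0269) and Ly6a (-1.09, adjusted p = 0.0404) were also called lower, as were 5.72% of all genes tested. The study's methods describe denuding the endothelium, taking off the adventitial layer, and checking the purity of each batch by staining for SM α-actin. The part of these markers in the levels of the interferon-stimulated genes was not tested. In bulk RNA, fewer cells expressing a gene and less RNA per cell cannot be told apart.

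The interferon-stimulated genes were low in the replicate 1 library of each genotype and high in the other 4 libraries. Both replicate 1 libraries lay below all 4 other libraries in 30 of the 33 genes, against 13.6% of the 12565 genes tested (those whose mean reached 0.5 FPKM), and above all 4 others in 0, against 24.1% of genes. The exceptions were Ifitm1, Ifitm2 and Isg20. Within each genotype, Ifitm1 and Isg20 were still lowest in replicate 1. The difference of replicates 2 and 3 from replicate 1, fitted with genotype as a term on log2(FPKM + 1), had a median of 2.94 over the 33 genes, and the median over all genes tested was -0.09. It ranged from 0.06 for Ifitm2 to 5.65 for Oasl2. The median SD over the 3 libraries of a genotype was 1.65 log2 units for Smyd2 fl/fl libraries and 1.81 for Smyd2 SMC-/- libraries, and the medians over all genes tested were 0.21 and 0.23. By the median, replicates 2 and 3 differed less from each other than from replicate 1, with a median absolute difference of 0.23 for Smyd2 fl/fl and 0.18 for the knockout, beside 0.12 and 0.14 over all genes tested. Across the 33 genes the difference of the replicate sets in Smyd2 fl/fl and that in Smyd2 SMC-/- correlated with r = 0.946, against 0.615 across all genes tested; genes are not independent replicates, and this is a description. The division of replicate 1 from the others had been seen in earlier results of these data, so no p-value is given for it. The labels name no batch.

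**Figure D1:**
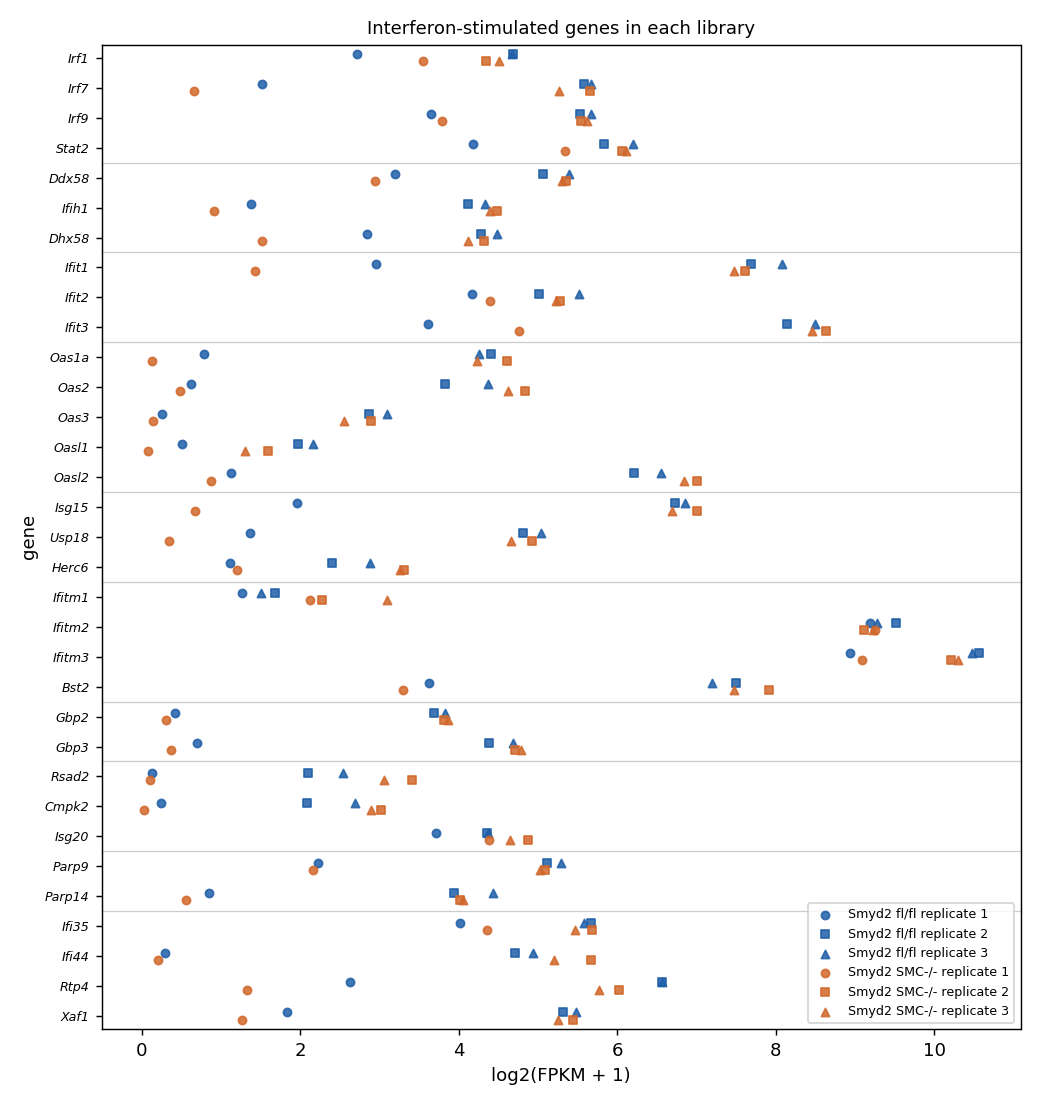
Level of each of 33 interferon-stimulated genes in each of the 6 libraries, as log2(FPKM + 1), with grey lines between groups of related genes. Circles (replicate 1) lie to the left of the squares and triangles of both genotypes for 30 of the 33 genes.

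**Figure D2:**
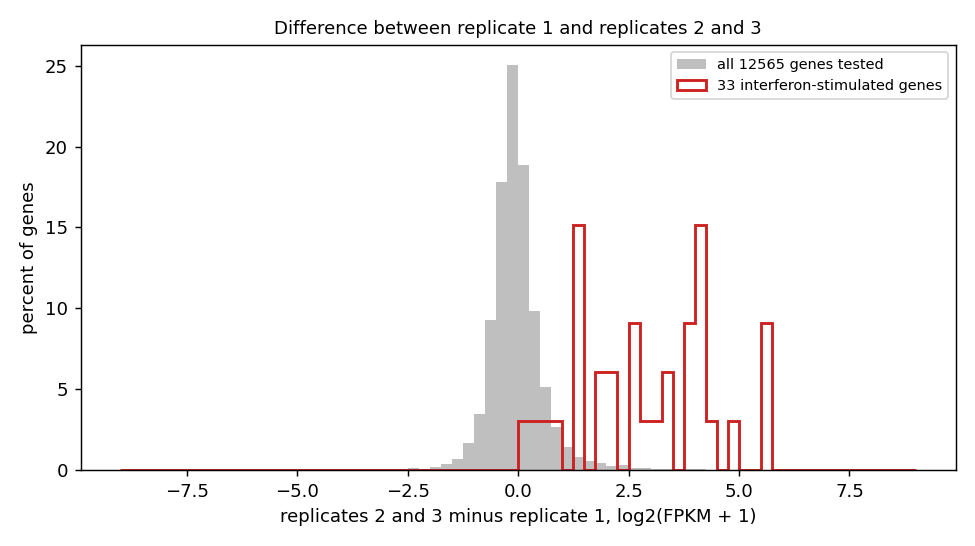
Fitted difference of replicates 2 and 3 from replicate 1, on the log2(FPKM + 1) scale, as percent of genes, for all 12565 genes tested (grey) and for the 33 interferon-stimulated genes (red). The red outline lies above 0, with a median of 2.94, and the grey bars have a median of -0.09.

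Promoter windows help to set these levels beside sequence. RefSeq windows on GRCm38.p6, running from 250 bases before to 50 after the transcription start on the strand of the gene, were matched by symbol for 27 of the 33 genes. The ISRE core, searched on both strands as GAAA, any 2 bases, GAAA, was found in 14 of the 27 genes (51.9%), and in 3.99% of the 27025 genes with a window. The gamma-activated site, searched as TTC, any 3 bases, GAA, was found in 7 genes (25.9%), and in 9.55% of all genes with a window. Where a gene had several windows, a match in any of them counted. Of the 24 genes with a window and both replicate 1 libraries lowest, 13 held the ISRE core, and of the 3 without that pattern, Ifitm2 did. A match is a description of letters and no more. The windows below belong to Isg15 (chr4:156200769-156201068, minus strand), Ifit1 (chr19:34640639-34640938, plus strand) and Oasl2 (chr5:114896684-114896983, plus strand), with the largest differences between the replicate sets among genes with 1 window, and to Ifitm2 (chr7:140955912-140956211, minus strand), with the smallest. Capitals mark the ISRE core on either strand.
Isg15: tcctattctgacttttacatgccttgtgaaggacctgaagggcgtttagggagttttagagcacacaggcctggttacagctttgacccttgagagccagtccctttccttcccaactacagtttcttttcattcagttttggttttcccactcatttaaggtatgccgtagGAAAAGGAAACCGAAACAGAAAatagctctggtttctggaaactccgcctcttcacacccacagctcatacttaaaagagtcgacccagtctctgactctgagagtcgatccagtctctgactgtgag
Ifit1: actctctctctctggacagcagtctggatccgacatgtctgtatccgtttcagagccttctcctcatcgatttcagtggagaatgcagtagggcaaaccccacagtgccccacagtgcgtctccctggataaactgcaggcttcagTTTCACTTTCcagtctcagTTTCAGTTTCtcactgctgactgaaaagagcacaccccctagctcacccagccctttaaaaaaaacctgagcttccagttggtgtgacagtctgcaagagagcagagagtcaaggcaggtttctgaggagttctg
Oasl2: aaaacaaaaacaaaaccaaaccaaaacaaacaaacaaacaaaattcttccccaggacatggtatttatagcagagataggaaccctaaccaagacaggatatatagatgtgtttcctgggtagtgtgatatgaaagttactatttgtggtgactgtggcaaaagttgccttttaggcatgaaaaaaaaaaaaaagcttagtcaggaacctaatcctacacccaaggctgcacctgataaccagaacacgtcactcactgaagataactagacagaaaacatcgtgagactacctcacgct
Ifitm2: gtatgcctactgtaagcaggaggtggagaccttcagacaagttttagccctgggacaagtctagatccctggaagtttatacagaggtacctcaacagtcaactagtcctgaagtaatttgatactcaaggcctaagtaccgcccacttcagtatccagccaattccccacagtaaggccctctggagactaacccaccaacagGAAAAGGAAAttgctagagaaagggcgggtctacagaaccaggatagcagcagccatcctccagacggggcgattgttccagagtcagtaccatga
Isg15 holds 3 overlapping matches and Ifit1 holds 2 on the opposite strand. No exact match is in the window of Oasl2, whose difference was the largest, and 1 is in that of Ifitm2.

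**Figure D3:**
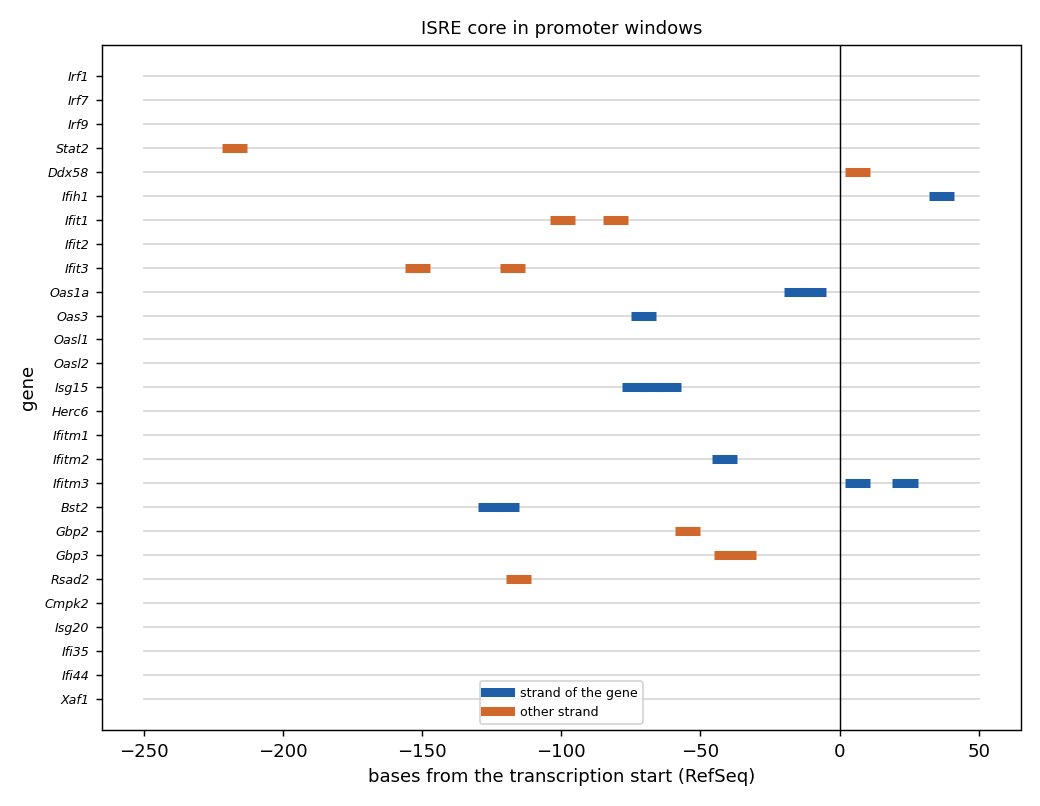
Position of the ISRE core in the windows of 27 interferon-stimulated genes, in bases from the RefSeq transcription start, on the strand of the gene (blue) or the other strand (orange); windows of genes with several starts are overlaid. Matches are seen for 14 of the genes.

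By genotype, 0 of the 33 genes were called lower and 0 higher in Smyd2 SMC-/- at an adjusted p under 0.05 in limma, against 1.21% and 1.23% of all genes tested. At an unadjusted p under 0.05 0 were lower and 1 was higher (3.03%), against 11.2% and 9.16% of all genes tested. The study's methods use other cutoffs, a fold change over 2 and an adjusted p under 0.01, at which the counts in limma were also 0 and 0, against 0.207% and 0.215%. The median log2 fold change was 0.02, beside -0.02 over all genes tested, with values from -0.88 for Rtp4 to 1.01 for Ifitm1. The groups overlapped in 31 of the 33 genes; 0 had every Smyd2 SMC-/- library below every Smyd2 fl/fl library, against 15.0% of all genes tested, and 2 had every one above, against 13.1%. These were Ifitm1 and Isg20. The median standard error of the genotype difference was 1.09 log2 units for the 33 genes and 0.20 over all genes tested, so that differences of that size were within the spread. The direction of the median depends on the libraries and the scale used. It was -1.06, 0.38 and 0.43 without Smyd2 fl/fl replicate 1, 2 or 3. The median was 1.14, -0.61 and -0.51 without Smyd2 SMC-/- replicate 1, 2 or 3, and -0.06 with a pseudocount of 0.1. Leaving out 1 library gives the genotypes unequal shares of replicate 1, where most of these genes were low. Those moves therefore do not measure how stable a genotype difference is.

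Among the transcription factors, Stat2, which carries the signal of the receptor to the nucleus, was at 17.15, 56.00 and 72.85 FPKM (Smyd2 fl/fl, replicates 1 to 3) against 39.61, 66.02 and 68.02 FPKM (Smyd2 SMC-/-). The replicate 1 libraries were lowest in both genotypes, and the groups overlapped (log2 fold change 0.43, SE 0.532, adjusted p = 0.714). Irf9, its DNA-binding partner, ranged from 11.61 to 49.84 FPKM, Irf7, which amplifies interferon production, from 0.58 to 49.78 FPKM, and Irf1 from 5.60 to 24.86 FPKM. In all 4 the replicate 1 libraries were the lowest.

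The RNA sensors showed the same division. Dhx58, a helicase that regulates RNA sensing, was at 6.21, 18.45 and 21.36 FPKM (Smyd2 fl/fl, replicates 1 to 3) against 1.87, 19.02 and 16.31 FPKM (Smyd2 SMC-/-). Its log2 fold change was -0.55 (SE 0.817, adjusted p = 0.769), and the spread within each genotype exceeded the difference. Ddx58 and Ifih1, which encode RIG-I and MDA5, ranged from 6.70 to 41.19 and from 0.88 to 21.49 FPKM. In both the replicate 1 libraries were the lowest.

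The IFIT proteins bind viral RNA. Ifit1 was at 6.75, 205.30 and 270.77 FPKM (Smyd2 fl/fl, replicates 1 to 3) against 1.70, 194.56 and 176.38 FPKM (Smyd2 SMC-/-). At the estimated depth these were about 321, 10571 and 13767 fragments and about 76, 9767 and 8718 fragments. The 2 replicate 1 libraries were far below the rest, and the mean of the other 4 was 50.1 times the mean of those 2. Its log2 fold change by genotype was -0.74 (SE 2.05, adjusted p = 0.888). Ifit3 was at 11.25, 281.93 and 359.82 FPKM (Smyd2 fl/fl, replicates 1 to 3) against 26.03, 397.75 and 351.91 FPKM (Smyd2 SMC-/-). Here the Smyd2 SMC-/- replicate 1 library was above that of Smyd2 fl/fl, and the log2 fold change was 0.53 (SE 1.58, adjusted p = 0.897). Ifit2 ranged from 17.00 to 44.94 FPKM.

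Some members of the OAS family make the second messenger that activates RNase L. In this family, Oasl2 was at 1.19, 72.90 and 93.27 FPKM (Smyd2 fl/fl, replicates 1 to 3) against 0.83, 128.32 and 113.47 FPKM (Smyd2 SMC-/-). Oasl1 was at 0.43, 2.92 and 3.48 FPKM (Smyd2 fl/fl, replicates 1 to 3) against 0.06, 2.02 and 1.47 FPKM (Smyd2 SMC-/-). Both encode OAS-like proteins, and their log2 fold changes were 0.28 (SE 2.09, adjusted p = 0.962) and -0.56 (SE 0.562, adjusted p = 0.65). The Oasl1 value was -1.07, -0.35 and -0.25 without Smyd2 fl/fl replicate 1, 2 or 3, -0.10, -0.86 and -0.71 without Smyd2 SMC-/- replicate 1, 2 or 3, and -1.14 with a pseudocount of 0.1. The Oasl2 value was negative without Smyd2 fl/fl replicate 1 (-1.47) and without Smyd2 SMC-/- replicate 2 (-0.78) or 3 (-0.69). Oas1a ranged from 0.10 to 23.38 FPKM, Oas2 from 0.40 to 27.69 FPKM and Oas3 from 0.11 to 7.58 FPKM. The replicate 1 libraries were lowest in all 5 genes.

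Isg15, a ubiquitin-like modifier, was at 2.91, 105.44 and 115.02 FPKM (Smyd2 fl/fl, replicates 1 to 3) against 0.60, 127.86 and 102.70 FPKM (Smyd2 SMC-/-). Usp18, which removes it from proteins and also restrains the receptor, was at 1.58, 27.00 and 31.96 FPKM (Smyd2 fl/fl, replicates 1 to 3) against 0.27, 29.54 and 24.40 FPKM (Smyd2 SMC-/-). In both the lowest library was Smyd2 SMC-/- replicate 1, at about 7 fragments of Isg15 and about 8 of Usp18. Herc6, an E3 ligase for Isg15, was at 1.16, 4.29 and 6.40 FPKM (Smyd2 fl/fl, replicates 1 to 3) against 1.30, 8.89 and 8.62 FPKM (Smyd2 SMC-/-). The log2 fold changes by genotype were -0.39 for Isg15 (SE 2.04, adjusted p = 0.944), -0.42 for Usp18 (SE 1.49, adjusted p = 0.914) and 0.46 for Herc6 (SE 0.695, adjusted p = 0.776).

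The membrane restriction factors include Ifitm3 and Ifitm2, the most abundant members by mean FPKM. Ifitm3, which blocks the entry of enveloped viruses, was at 489.26, 1512.84 and 1422.38 FPKM (Smyd2 fl/fl, replicates 1 to 3) against 544.91, 1191.12 and 1263.90 FPKM (Smyd2 SMC-/-). Ifitm2, a close relative, was at 585.93, 732.53 and 619.49 FPKM (Smyd2 fl/fl, replicates 1 to 3) against 609.21, 555.05 and 601.03 FPKM (Smyd2 SMC-/-). Ifitm3 was lower in the replicate 1 libraries, and Ifitm2 was between 555.05 and 732.53 FPKM in all 6. Bst2, which tethers budding virions to the cell, was at 11.39, 180.65 and 146.36 FPKM (Smyd2 fl/fl, replicates 1 to 3) against 8.81, 240.36 and 176.72 FPKM (Smyd2 SMC-/-). The log2 fold changes by genotype were -0.12 for Ifitm3 (SE 0.523, adjusted p = 0.934), -0.13 for Ifitm2 (SE 0.134, adjusted p = 0.659) and 0.11 for Bst2 (SE 1.51, adjusted p = 0.977); the first turned positive with TPM scaling, and the first and the Ifitm2 value did so with quantile normalization. Ifitm1, another relative, was at 1.41, 2.20 and 1.83 FPKM (Smyd2 fl/fl, replicates 1 to 3) against 3.35, 3.83 and 7.56 FPKM (Smyd2 SMC-/-). The groups did not overlap, and the log2 fold change was 1.01 (SE 0.289, adjusted p = 0.124).

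Gbp2 and Gbp3, which encode guanylate-binding GTPases, ranged from 0.24 to 13.64 FPKM and from 0.29 to 26.57 FPKM, with the replicate 1 libraries lowest. Rsad2, which makes the chain terminator ddhCTP, was at 0.10, 3.27 and 4.84 FPKM (Smyd2 fl/fl, replicates 1 to 3) against 0.08, 9.61 and 7.34 FPKM (Smyd2 SMC-/-). Its log2 fold change was 0.60 (SE 1.01, adjusted p = 0.799), and the replicate 1 values rest on about 7 and 5 fragments. Cmpk2, a mitochondrial nucleotide kinase, ranged from 0.02 to 7.10 FPKM. Isg20, an exonuclease, was at 12.16, 19.52 and 19.77 FPKM (Smyd2 fl/fl, replicates 1 to 3) against 19.88, 28.38 and 24.09 FPKM (Smyd2 SMC-/-). Its groups did not overlap, and the log2 fold change was 0.49 (SE 0.228, adjusted p = 0.295). Without Smyd2 fl/fl replicate 1 it was 0.27, and without Smyd2 SMC-/- replicate 1 it was 0.61.

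Rtp4 was at 5.21, 94.10 and 93.67 FPKM (Smyd2 fl/fl, replicates 1 to 3) against 1.52, 63.87 and 53.42 FPKM (Smyd2 SMC-/-). Within each replicate number the Smyd2 SMC-/- library was the lower. Its log2 fold change was -0.88 (SE 1.57, adjusted p = 0.812), and with the replicate block the SE was 0.165 and the adjusted p 0.0407. Without Smyd2 SMC-/- replicate 1 the log2 fold change was 0.64, and without Smyd2 fl/fl replicate 1 it was -2.20. Both leave-outs give the genotypes unequal shares of replicate 1. In replicates 2 and 3 alone the value was -0.68 (adjusted p = 0.00538 in limma). Among the remaining genes, the ADP-ribosyltransferases Parp9 and Parp14 ranged from 3.46 to 38.29 FPKM and from 0.47 to 20.65 FPKM, Ifi35 from 15.14 to 50.39 FPKM, Ifi44 from 0.15 to 49.88 FPKM, and Xaf1, a proapoptotic protein, from 1.40 to 43.53 FPKM. In all of these the replicate 1 libraries were the lowest.

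Libraries with the same replicate number in the labels were then set beside each other. The study names no pairing, and the values did not show that 2 pairs with 2 and 3 with 3. In replicate 1 the Smyd2 SMC-/- library was lower for 22 of the 33 genes (median log2 difference -0.14), in replicate 2 for 7 (median 0.20) and in replicate 3 for 21 (median -0.09). Over all genes tested these medians were 0.05, -0.08 and -0.04. The difference had the same sign in all 3 replicate numbers in 7 genes (21.2%), against 55.1% of all genes tested. Across the 33 genes the differences of replicates 1 and 2 correlated with r = 0.206, of 1 and 3 with 0.485 and of 2 and 3 with 0.676, where all genes tested gave 0.482, 0.557 and 0.820.

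**Figure D4:**
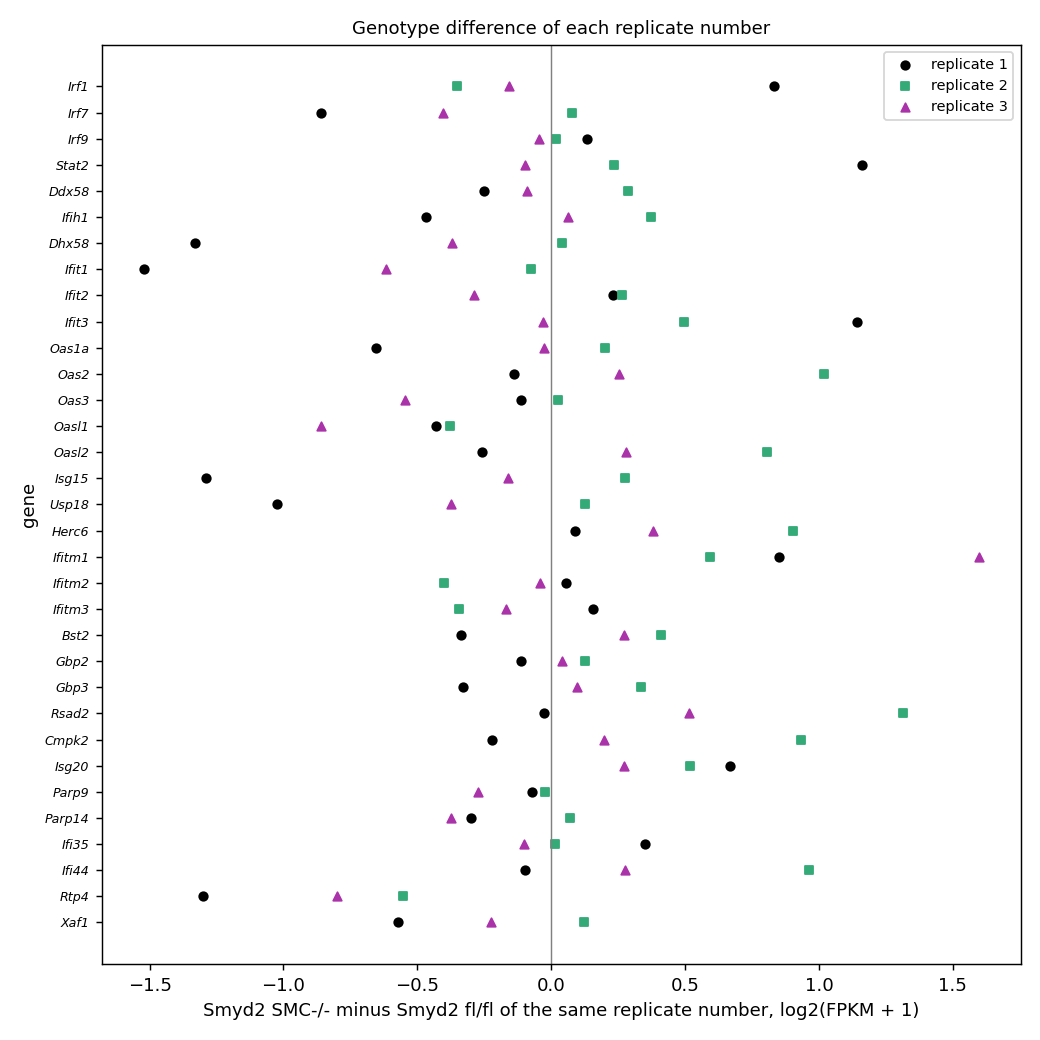
Difference of Smyd2 SMC-/- from Smyd2 fl/fl within each replicate number, in log2(FPKM + 1), for the 33 genes. The 3 symbols lie on the same side of 0 for 7 genes.

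With the replicate block, 1 of the 33 genes was called lower in limma (Rtp4) and 0 higher, against 5.72% and 4.72% of all genes tested, and the median standard error for the 33 genes was 0.19. At an unadjusted p under 0.05 the block gave 2 and 2 (6.06% each), against 17.4% and 14.7%. With a block for replicate 1 alone, 2 were lower (Rtp4 and Oasl1) and 2 higher (Ifitm1 and Isg20), against 11.1% and 9.17%. In replicates 2 and 3 alone, 2 were lower, Rtp4 and Oasl1, against 17.3%, and 7 were higher, Oas2, Oasl2, Herc6, Ifitm1, Rsad2, Isg20 and Ifi44, against 12.1% of the 12462 genes tested there. The share that was higher, 21.2%, lay above the background and the share that was lower, 6.06%, below it. Oas2 and Ifi44 were picked out after their values were seen.

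The genotype difference of replicate 1 was set against that of replicates 2 and 3 as an interaction in limma. With 1 library of each genotype in replicate 1, the spread there was not measured and is assumed to equal that of the others, and the division was known beforehand, so the values are a description under that assumption. The term passed an adjusted p of 0.05 with a negative sign in 2 of the 33 genes and a positive one in 3, against 5.68% and 2.94% of all genes tested, where positive means that the difference was further toward Smyd2 SMC-/- in replicates 2 and 3. At an unadjusted p under 0.05 there were 3 negative (9.09%) and 14 positive (42.4%), against 17.1% and 8.55%. Those past the adjusted threshold are Irf1 and Stat2 (negative) and Isg15, Ifit1 and Dhx58 (positive), with Irf1 picked out after its values were seen. The count of 5 became 3 without Smyd2 fl/fl replicate 2 and also without Smyd2 SMC-/- replicate 2, 10 without Smyd2 SMC-/- replicate 3, 12 with a pseudocount of 0.1 and 9 with TPM scaling. The share of all genes passing at each of these other settings is not given here, so these counts are not set against a background. For Isg15 the difference was -1.29 in replicate 1, 0.28 in replicate 2 and -0.16 in replicate 3 (interaction 1.35). For Irf1 it was 0.83, -0.35 and -0.16 (interaction -1.09). Some cell type markers moved with this term as well. The term passed in 0 of the 5 leukocyte and macrophage markers tested and not for Kdr, the 1 endothelial marker tested. It passed in 5 of the 8 smooth muscle markers tested, all positive, at 3.02 for Myl9, 2.52 for Tagln, 2.50 for Cnn1, 1.78 for Lmod1 and 1.62 for Tpm2, and in 4 of the 7 adventitial markers tested, positive for Lum (2.24) and Cd34 (1.78) and negative for Pdgfra (-1.63) and Ly6a (-0.85). These were picked out after their values were seen, and their part in the interaction of the interferon-stimulated genes was not tested.

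Other genes of the pathway were read from a list of 91, of which 81 were listed and 75 tested. By genotype 0 were called lower and 0 higher in limma, against 1.21% and 1.23% of all genes tested. At an unadjusted p under 0.05 there were 6 (8.0%) and 1 (1.33%), against 11.2% and 9.16%, and the median log2 fold change was 0.01. With the replicate block 2 were lower (2.67%) and 0 higher in limma, against 5.72% and 4.72%, and at an unadjusted p under 0.05 there were 8 and 8 (10.7% each), against 17.4% and 14.7%. Both replicate 1 libraries lay below the other 4 in 58 of the 75 (77.3%) and above them in 3 (4.0%), against 13.6% and 24.1% of all genes tested. By group, both replicate 1 libraries were below in 47 of 49 further interferon-stimulated genes, 3 of 6 receptors, 2 of 8 receptor kinases, signal transducers and inhibitors, and 6 of 12 genes of nucleic acid sensing.

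Of 10 interferon ligands, 1 was listed. Ifnb1, which encodes interferon beta, was listed at 0.00, 0.00 and 0.07 FPKM (Smyd2 fl/fl, replicates 1 to 3) against 0.00, 0.07 and 0.00 FPKM (Smyd2 SMC-/-). It was at or near 0 in all 6 libraries, and no fold is given. The receptor subunit Ifnar1 was at 9.99, 15.45 and 15.38 FPKM (Smyd2 fl/fl, replicates 1 to 3) against 11.97, 14.36 and 14.85 FPKM (Smyd2 SMC-/-). Its partner Ifnar2 was at 21.62, 57.89 and 53.21 FPKM and at 27.97, 51.14 and 53.49 FPKM. Both were lowest in replicate 1 of each genotype and overlapped between genotypes (log2 fold changes 0.03 and 0.06, adjusted p = 0.955 and 0.957).

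Ifngr1, the ligand-binding subunit of the interferon gamma receptor, was at 40.65, 69.55 and 65.77 FPKM (Smyd2 fl/fl, replicates 1 to 3) against 25.29, 33.14 and 36.35 FPKM (Smyd2 SMC-/-). The genotypes did not overlap. The log2 fold change was -0.85 (SE 0.244, adjusted p = 0.125), and with the replicate block the adjusted p was 0.0232. Ifi27l2a, an interferon-induced gene, was at 24.93, 296.36 and 196.02 FPKM (Smyd2 fl/fl, replicates 1 to 3) against 2.78, 129.30 and 86.40 FPKM (Smyd2 SMC-/-). The Smyd2 SMC-/- library was lower in each replicate number (log2 fold change -1.71, adjusted p = 0.596, and 0.0493 with the replicate block). The log2 fold change was -0.11 without Smyd2 SMC-/- replicate 1 and -1.03 without Smyd2 fl/fl replicate 2. It was -2.79 without Smyd2 fl/fl replicate 1 and -2.66 without Smyd2 SMC-/- replicate 2. These leave-outs give the genotypes unequal shares of replicate 1 and do not measure how stable the difference is. In replicates 2 and 3 alone the value was -1.18 (adjusted p = 0.0259 in limma). Within replicate numbers 1 to 3 the differences were -2.78, -1.19 and -1.17. Ifngr2, Jak2, Mb21d1, Tmem173 and Slfn5 also had every Smyd2 SMC-/- library below every Smyd2 fl/fl library, and Ifnlr1 had every one above; they were picked out after their values were seen. With Ifngr1 these are 6 of the 75 genes (8.0%) below and 1 (1.33%) above, both under the 15.0% and 13.1% of all genes tested. Their adjusted p in limma without the block ran from 0.0822 for Tmem173, which encodes STING, to 0.166 for Slfn5. Leaving Ifngr1 aside, it ran from 0.0547 for Ifnlr1 to 0.0797 for Slfn5 with the replicate block. With a block for replicate 1 alone it ran from 0.022 for Ifnlr1 to 0.0408 for Slfn5, so all of these were called. By that block 9.33% of the pathway genes were lower and 6.67% higher, against 11.1% and 9.17% of all genes tested.

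**Figure D5:**
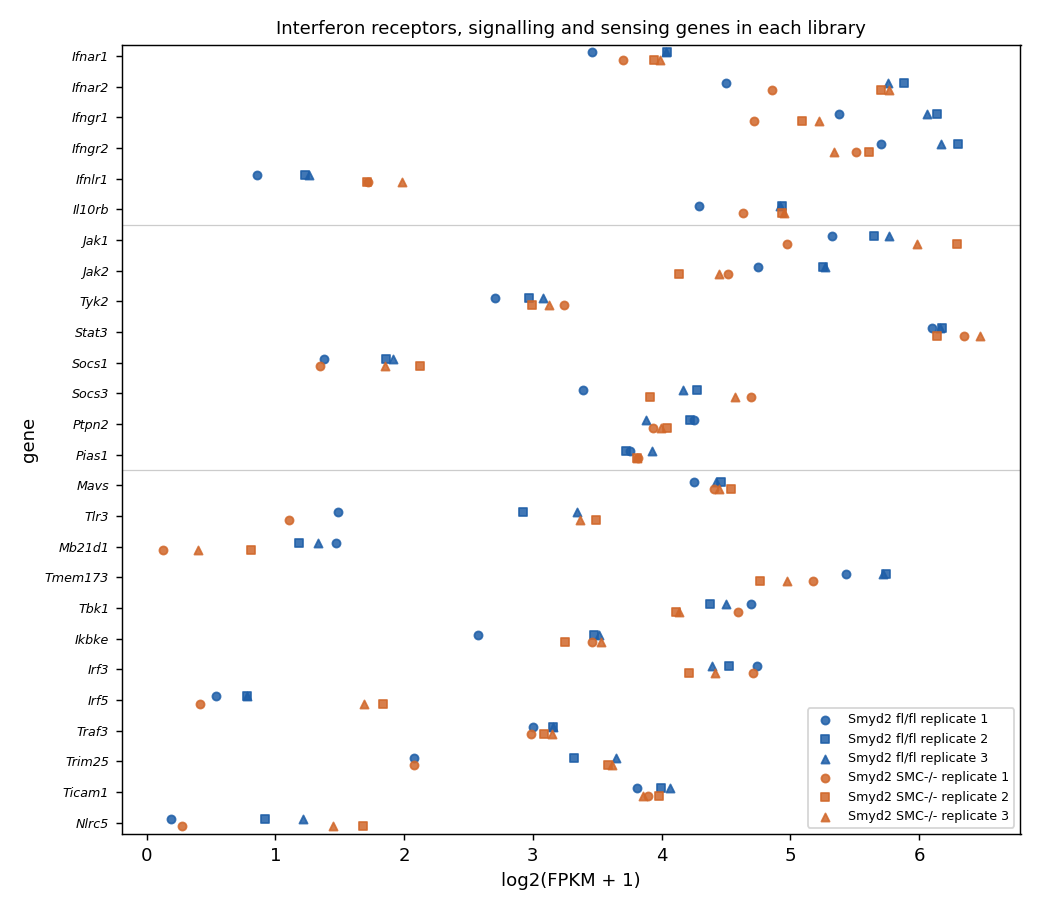
Level of the tested interferon receptors, receptor kinases, signal transducers, inhibitors and nucleic acid sensing genes in each library, as log2(FPKM + 1). Tlr3 and Trim25 are among the genes lowest in both replicate 1 libraries. The genotypes do not overlap for Ifngr1, Ifngr2, Jak2, Mb21d1 and Tmem173, lower in Smyd2 SMC-/-, and for Ifnlr1, higher there.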

How the data were processed

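RNA of 3 Smyd2 fl/fl and 3 Smyd2 SMC-/- cultures was sequenced, and groups and replicate numbers were taken from the sample labels. The authors used SOAPnuke for read filtering, HISAT and Bowtie2 for mapping and RSEM for expression, and deposited FPKM rounded to 2 decimals; versions and genome build are not given in the sources used here. The members and lists were chosen with earlier results of these data known.

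Genes whose mean reached 0.5 FPKM were tested on log2(FPKM + 1), which understates changes of low genes, with limma 3.58.1 in R 4.3.3 (trend and robust) and Benjamini-Hochberg adjustment over all 12565 genes tested. The fits were tested on simulated data. Values in every library are given for members called without or with the replicate block, the 8 of highest mean, the 5 of largest rise and the 5 of largest fall, for pathway genes called in either fit, and for Ifnb1, Ifnar1, Ifnar2 and Smyd2; 1 pathway gene is not reported here, in counts either. The interaction of genotype with replicate set and the replicate set itself were chosen because earlier results showed replicate 1 apart.

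The replicate numbers come from the labels. Deviations from the group means correlated across genes by 0.615, 0.460 and 0.527 for same-numbered replicates 1, 2 and 3, but also by 0.461 and 0.439 for replicates 2 and 3 of different genotypes. Replicate 1 is thus apart, and the values do not show that 2 pairs with 2 and 3 with 3. The group means include replicate 1, which shifts the deviations of replicates 2 and 3 alike. The comparison is therefore a weak guide to how replicates 2 and 3 pair. The study names no pairing, the main test has no block, and the replicate block is an alternative that takes the numbers as labelled.

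In GENCODE M21, 4343 genes had 1 listed transcript of known length. Depth was scanned over the low values of those with lengths of 600 to 2500 bases, 380 to 442 values per library at the depth picked. From the length 75 bases were taken off, the best of 7 offsets tried, chosen after the data were seen. Depth covers counting error only. Alternatives were a pseudocount of 0.1, no filter, the replicate block, a block for replicate 1, replicates 2 and 3 alone, leaving out each library, TPM, quantile normalization and the cutoffs of the study's methods. Leave-outs and scalings of the interaction were added after the data were seen. Python 3.11.15 with pandas 2.3.3, numpy 2.4.6 and matplotlib 3.10.9 was used elsewhere. Gene numbers are NCBI Gene identifiers.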

Additional observations from a re-analysis of the deposited data

Results flagged for a closer look

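The interaction of genotype with replicate set (1 against 2 and 3) passed an adjusted p of 0.05 in limma in 5 of the 33 interferon-stimulated genes and in 10 of 75 further genes of the pathway. By sign this is 6.06% negative and 9.09% positive of the 33 and 6.67% each of the 75, against 5.68% and 2.94% of all genes tested. With 1 library of each genotype in replicate 1, its spread was not measured and is assumed to equal that of the others, in a division known beforehand. Among the 33 genes the interaction was 1.35 for Isg15, 1.17 for Ifit1, 1.17 for Dhx58, -1.09 for Irf1 and -1.09 for Stat2, on the log2 scale. In the rest of the pathway it was positive for Trim30a at 2.04, Lgals3bp at 1.78, Irgm2 at 1.47, Sp100 at 1.42 and Irf5 at 1.10. It was negative for Slfn5 at -2.24, Ifi205 at -1.58, Ifi47 at -1.46, Slfn2 at -1.26 and Ikbke at -0.99. Slfn5 was at 0.47, 6.02 and 6.38 FPKM (Smyd2 fl/fl, replicates 1 to 3) against 0.15, 0.20 and 0.19 FPKM (Smyd2 SMC-/-). Trim30a was at 0.13, 2.90 and 3.24 FPKM (Smyd2 fl/fl, replicates 1 to 3) against 0.30, 20.55 and 16.28 FPKM (Smyd2 SMC-/-). Both were picked out after their values were seen. The replicate 1 libraries of both genotypes held little of either gene, and the part of that in the interaction was not tested.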

How the results depend on the processing

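Members called lower numbered 0 and members called higher 0 with a pseudocount of 0.1, without the filter, under TPM or quantile normalization, at the cutoffs of the study's methods, and without any 1 library. With the replicate block they were 1 and 0, with a block for replicate 1 they were 2 and 2, and in replicates 2 and 3 alone 2 and 7. Of the other pathway genes 2 lower (2.67%) and 0 higher were called with the replicate block, against 5.72% and 4.72% of all genes tested. With a block for replicate 1 there were 7 (9.33%) and 5 (6.67%), against 11.1% and 9.17%. In replicates 2 and 3 alone there were 9 and 9 (12.0% each), against 17.3% and 12.1%. Leaving out a library gave 0 to 1 lower and 0 to 1 higher. The median log2 fold change of the members ran from -1.06 to 1.14 when a library was left out. TPM moved the median of all genes by 0.11, and relative to it the median of the members was -0.001, beside 0.04 without rescaling.

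Of all genes tested, 152 were lower and 154 higher, with 719 and 593 under the replicate block, 1398 and 1152 with a block for replicate 1, 2160 and 1507 in replicates 2 and 3 alone, 99 and 247 under TPM (28.6% lower, against 49.7%), 26 and 27 at the cutoffs of the study's methods, and 16 to 310 and 16 to 372 without a library. The Smyd2 log2 fold change of -1.48 passed the threshold with either block, and at -1.35 in replicates 2 and 3 alone. Members with an interaction numbered 5, 12 with a pseudocount of 0.1, 9 under TPM, and 3 to 10 without a library. The shares of all genes passing the interaction at those other settings are not given here. The median difference between replicate sets was 2.94, and 4.33 with the smaller pseudocount.

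Leaving out a library turned the direction of several log2 fold changes, none of which was called in limma with all 6 libraries and no block. It also left the genotypes with unequal shares of replicate 1, so these ranges do not measure how stable a genotype difference is. The ranges were -2.20 to 0.64 for Rtp4, -0.65 to 0.27 for Ifitm3, -1.03 to 1.80 for Ifit3, -2.38 to 1.30 for Ifit1, -1.13 to 1.58 for Bst2, -2.0 to 1.67 for Isg15, -1.47 to 2.29 for Oasl2, -0.18 to 0.83 for Stat2, -0.13 to 1.64 for Rsad2, -0.0542 to 1.15 for Herc6, -1.06 to 0.35 for Dhx58, -1.61 to 1.06 for Usp18, -0.16 to 0.13 for Ifnar1 and -0.38 to 0.36 for Ifnar2. Ifitm3 was at 0.00453 under TPM and 0.20 under quantile normalization, and Ifitm2 at 0.15 under the latter. In replicates 2 and 3 alone Isg15 was at 0.0569, Ifnar1 at -0.0732 and Ifnar2 at -0.0841. The replicate block changed the calls of Rtp4, Ifngr1, Ifi27l2a and Smyd2 and no other call among the members, pathway genes and Smyd2; among the markers it changed those of Ly6a, Cd34 and Cald1. Fewer than 10 fragments stood behind several replicate 1 values, where depth limits the comparison. The cause of these changes was not tested.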
